A study of Homo sapiens with 6 samples.

Results

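Kinesins are motor proteins that use ATP to move along microtubules or to take their ends apart. Some work in dividing cells, where they build the spindle, align and move chromosomes and help to separate the daughter cells, and their genes are switched on before mitosis. Others carry vesicles, organelles and protein complexes through the cytoplasm at all stages of the cell cycle, and the heavy chains of kinesin-1 bind cargo with the help of light chains. In the RNA-Sequence data, 46 of 54259 listed gene symbols were kinesin (KIF) or kinesin light chain (KLC) genes, matched by their symbols. This family and the lists below were chosen with earlier results of these data known. A mitotic list held 11 of them (KIF2C, KIF4A, KIF11, KIF14, KIF15, KIF18A, KIF18B, KIF20A, KIF20B, KIF22 and KIF23). A transport list held 19, which were the kinesin-1, kinesin-2 and kinesin-3 motors outside the mitotic list, KIFC2, KIFC3 and the 4 light chains, and 16 genes were in neither list. All 46 were found in GENCODE 29 on GRCh38.

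The libraries were 3 of MDA-MB-231 shBry cells, which express a short hairpin RNA against brachyury, and 3 of MDA-MB-231 shNC cells, which express a control hairpin. Both groups are hairpin-carrying cells of 1 established line, MDA-MB-231, which was derived from a human breast cancer. The sources used here give neither the hairpin sequences for these cells nor whether replicates came from separate cultures, so p-values measure the spread between these libraries, which may be technical. Brachyury, listed as T, had 0 counts in all 6 libraries, so the knockdown could not be checked on its target. The deposited design text calls the RNA pericardial, but 5 heart muscle markers together had at most 0.183 CPM (counts per 1000000 counts of the library, after scaling) in any library, with MYH6, MYL7 and NPPA at 0. The 6 MDA-MB-231 markers, among them VIM and AXL, together had 7902 to 8252 CPM in shNC and 6868 to 7138 CPM in shBry. CAV1 of this list was called lower in shBry (log2 fold change -1.11), and its other genes were not called. The 5 mesothelial markers together had 40.2 to 42.1 CPM in shNC and 51.4 to 57.7 CPM in shBry, most of it MSLN, and UPK3B and WT1 stayed at or below 0.321 CPM. Of these markers LRRN4 was called higher in shBry (log2 fold change 0.76) and CALB2 lower (-2.52), with CALB2 at 11.1 CPM in shNC replicate 3 and 1.37 CPM in each of the other shNC libraries. The fibroblast markers together had 19.4 to 23.9 CPM in shNC and 20.8 to 24.3 CPM in shBry, nearly all of it COL1A1. The luminal breast markers together had 14.8 to 17.2 CPM in shNC and 18.9 to 19.2 CPM in shBry. Leukocyte markers together had at most 0.229 CPM in any library. Total counts lay between 19319411 and 22985371 per library, so 3 counts, the most that a count of 0 allows, were at most 0.155 CPM, which covers counting error only. Replicates of a group differed by more than sampling noise. Within each group, libraries also differed along transcript GC content. Over 13619 tested genes, the deviation of a library from its group mean had a Spearman correlation with GC content of -0.54 in shNC replicate 3 and -0.34 in shBry replicate 2, against 0.37 in shNC replicate 1 and 0.36 in shBry replicate 1.

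The promoters of the mitotic kinesin genes are shown because the genes were lower together in shBry and because genes of late cell cycle phases are known for promoters with a cell cycle homology region and CCAAT boxes. Promoter windows from RefSeq on GRCh38.p14, 250 bases before to 50 bases after the start of the gene, were given for 36 of the 46 genes. The windows of KIF20A, KIF18B and KIF2C, the genes of the mitotic list with the smallest adjusted p among those with such a match, are printed 5′ to 3′, with matches to the searched motifs in capitals:
KIF20A, chr5:138178862-138179161, plus strand: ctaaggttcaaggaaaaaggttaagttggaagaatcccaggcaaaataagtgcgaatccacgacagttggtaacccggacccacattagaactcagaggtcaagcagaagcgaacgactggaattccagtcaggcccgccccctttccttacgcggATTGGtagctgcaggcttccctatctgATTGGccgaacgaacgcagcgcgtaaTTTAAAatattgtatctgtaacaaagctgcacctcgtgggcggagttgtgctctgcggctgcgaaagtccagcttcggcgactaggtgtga
KIF18B, chr17:44947724-44948023, minus strand: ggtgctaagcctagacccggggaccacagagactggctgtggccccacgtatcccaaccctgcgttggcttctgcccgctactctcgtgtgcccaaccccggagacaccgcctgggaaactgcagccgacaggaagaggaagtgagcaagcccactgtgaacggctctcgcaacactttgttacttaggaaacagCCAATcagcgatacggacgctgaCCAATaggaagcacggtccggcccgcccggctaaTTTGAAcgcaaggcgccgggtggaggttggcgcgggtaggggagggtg
KIF2C, chr1:44739587-44739886, plus strand: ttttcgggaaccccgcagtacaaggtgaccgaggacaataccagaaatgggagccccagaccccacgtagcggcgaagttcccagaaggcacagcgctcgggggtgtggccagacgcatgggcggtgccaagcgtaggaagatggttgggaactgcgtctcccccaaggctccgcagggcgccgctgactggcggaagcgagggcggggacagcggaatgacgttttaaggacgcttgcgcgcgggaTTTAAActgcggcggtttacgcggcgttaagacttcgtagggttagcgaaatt
Matches to TTTGAA or TTTAAA, the letters of the cell cycle homology region, were searched on both strands. In KIF20A the match, TTTAAA, began at position -41 from the start, and CCAAT boxes, read on the other strand, began at positions -94 and -67. KIF18B had TTTGAA at position 3 after the start and CCAAT boxes at -55 and -32. KIF2C had TTTAAA at position -3 and no CCAAT box in the window.

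A TTTGAA or TTTAAA match was present in 10 of 11 promoters of the mitotic list (90.9%), with KIF22 as the exception. It was present in 2 of 13 promoters of the transport list (15.4%), those of KIF5B and KIF16B, and in 24.3% of all 27305 promoter windows. Of the genes in neither list, 2 of 12 (16.7%) had one. These were KIFC1, a mitotic motor of the kinesin-14 family, and KIF4B, the intronless copy of KIF4A. CCAAT, also searched on both strands, was present in 9 of 11 mitotic promoters (81.8%), 3 of 13 transport promoters (23.1%), 5 of 12 of the rest (41.7%) and 35.7% of all windows. Both were found in 8 of 11 mitotic promoters (72.7%), 1 of 13 transport promoters (7.69%) and 9.49% of all windows. TTTCCCGC, TTTGGCGC, TTTCGCGC and TTTGCCGC, forms of the E2F site, were found only in KIF15 among the mitotic genes (9.09%), as TTTGGCGC, against 3.33% of all windows for any of the 4. No motif overlapped a match of another in the printed windows. A match describes the letters of a window and was not tested as a binding site.

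Most mitotic kinesin genes were lower in shBry than in shNC. Library sizes were scaled by TMM, genes with too few counts were removed, and a gene was called at a Benjamini-Hochberg adjusted p below 0.05 in edgeR's quasi-likelihood test together with a fold change above 1.5. Of the 11 genes, 10 had enough counts to be tested, each with at least 137 counts in every library, and 7 of them (70%) were called lower. None was called higher. Over all 15277 tested genes, 32.4% were called, 15.2% lower and 17.1% higher. All 10 log2 fold changes were below 0, with a median of -1.03, against 0.03 for all tested genes. In 8 of the 10 genes the 3 shBry values lay below the 3 shNC values without overlap, which was seen in 28.9% of all tested genes. Of the genes with both promoter matches, KIF4A, KIF11, KIF14, KIF18B and KIF20A were called lower and KIF18A, KIF20B and KIF23 were not. KIF22, without TTTGAA or TTTAAA, and KIF2C, without CCAAT, were also called lower. Whether the matches relate to the changes was not tested. The 5 genes with the lowest adjusted p lie on GRCh38 as follows: KIF20A on chromosome 5 from 138178719 to 138187715, KIF18B on chromosome 17 from 44924709 to 44947711, KIF22 on chromosome 16 from 29790719 to 29805385, KIF2C on chromosome 1 from 44739818 to 44767767 and KIF4A on chromosome X from 70290090 to 70420832. In RNA from a whole culture, fewer dividing cells and less RNA of these genes in each dividing cell cannot be told apart.

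The genes of the last step of division, cytokinesis, differed widely in the size of their change. KIF20A, also called MKLP2, a kinesin-6 motor needed for cytokinesis, had 136.9, 120.4 and 132 CPM in shNC replicates 1, 2 and 3 and 19.7, 20.2 and 18.0 CPM in shBry replicates 1, 2 and 3. It fell to 14.9% of its shNC level, which gave a log2 fold change of -2.75 ± 0.10 (edgeR estimate and standard error, adjusted p = 3.1e-11). It was the largest fall of all tested kinesin genes, and the groups were far apart. KIF23, its kinesin-6 relative MKLP1 and a subunit of centralspindlin, had 84.4, 76.8 and 94.5 CPM in shNC and 62.2, 61.7 and 62.2 CPM in shBry. The groups did not overlap, but its log2 fold change of -0.46 ± 0.09 (edgeR estimate and standard error, adjusted p = 0.00075) stayed within the fold change limit, so it was not called. KIF20B, the third kinesin-6 gene, had 11.5, 11.9 and 20.6 CPM in shNC and 7.48, 16.4 and 7.14 CPM in shBry. shBry replicate 2 lay among the shNC values, and the log2 fold change was -0.49 (standard error 0.29, adjusted p = 0.17, edgeR). Without shBry replicate 2 it was -1.01 and the gene was called lower (adjusted p = 0.00044, edgeR). KIF14, a kinesin-3 motor that acts in cytokinesis with citron kinase, had 14.8, 17.2 and 23.4 CPM in shNC and 10.1, 13.2 and 8.07 CPM in shBry. It fell by 0.82 on the log2 scale (standard error 0.19, adjusted p = 0.0026, edgeR), with no overlap between the groups.

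KIF4A and KIF22, motors that bind chromosomes and push their arms along the spindle, both fell. KIF22 had 207.6, 214 and 200.6 CPM in shNC and 80.0, 68.9 and 75.7 CPM in shBry, which gave a log2 fold change of -1.47 ± 0.08 (edgeR estimate and standard error, adjusted p = 5e-09). KIF4A, which also works with PRC1 in the midzone between the separating chromosomes, had 126, 119 and 136 CPM in shNC and 56.8, 49.5 and 55.2 CPM in shBry. Its log2 fold change was -1.24 (standard error 0.09, adjusted p = 5.8e-08, edgeR), and the groups did not overlap. KIF4A shared 13.7% of its 50-base transcript stretches with other genes, mainly KIF4B, which had at most 9 counts in any library.

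Among the motors that act on microtubule ends, KIF18B and KIF2C fell and KIF18A did not change past the test. KIF18B, a kinesin-8 motor that keeps astral microtubules short, had 174, 173 and 166 CPM in shNC and 52.5, 50.5 and 49.7 CPM in shBry. It fell to 29.8% of its shNC level, which gave a log2 fold change of -1.75 ± 0.08 (edgeR estimate and standard error, adjusted p = 5.2e-10). KIF2C, also called MCAK, a kinesin-13 protein that removes tubulin from microtubule ends and corrects wrong attachments of chromosomes, had 192, 191 and 207 CPM in shNC. It had 88.4, 76.2 and 84.7 CPM in shBry, which gave a log2 fold change of -1.24 ± 0.08 (edgeR estimate and standard error, adjusted p = 3.2e-08). Both genes had groups that were clearly separate. KIF18A, the kinesin-8 motor that aligns chromosomes at the metaphase plate, had 7.7, 6.997 and 12.6 CPM in shNC and 8.35, 10.4 and 6.07 CPM in shBry. These groups overlapped, with a log2 fold change of -0.13 ± 0.23 (edgeR estimate and standard error, adjusted p = 0.66) that lay between -0.35 and 0.15 with each library left out in turn.

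The spindle motors KIF11 and KIF15 had lower values in shBry with less certainty. KIF11, also called Eg5, the kinesin-5 motor that pushes the spindle poles apart, had 29.4, 32.0 and 49.3 CPM in shNC and 22.2, 28.2 and 20.6 CPM in shBry. It was called lower, with a log2 fold change of -0.64 ± 0.18 (edgeR estimate and standard error, adjusted p = 0.0076). The highest shNC value was that of replicate 3, and without that library the log2 fold change was -0.40, within the fold change limit. Without shBry replicate 3 it was -0.54, also within the limit. KIF15, a kinesin-12 motor that can stand in for KIF11, had 14, 5 and 11 counts in shNC and 0, 5 and 4 counts in shBry and was removed by the expression filter.

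**Figure D1:**
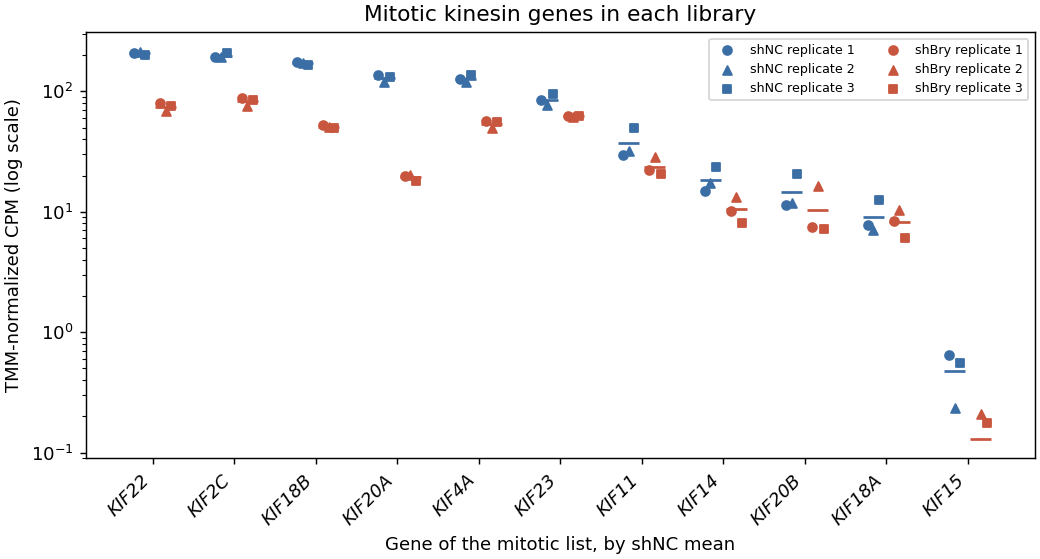
TMM-normalized CPM (log scale) of the 11 genes of the mitotic list, with 1 point per library and a line at each group mean of 3 libraries. KIF15 in shBry replicate 1, at 0, cannot be drawn on this scale. The shBry points of KIF22, KIF2C, KIF18B, KIF20A and KIF4A lie far below the shNC points, whereas those of KIF20B and KIF18A overlap them.

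Transport kinesin genes changed in both directions, and few of them were called. Of the 19 genes, 17 were tested, 1 was called lower (5.88%, against 15.2% of all tested genes) and 2 were called higher (11.8%, against 17.1%). Without the fold change limit, 8 of the 17 had an adjusted p below 0.05 (edgeR), 6 lower and 2 higher in shBry. The share of all tested genes without this limit was not taken. The median log2 fold change was -0.10. The groups did not overlap in 11 genes, with 6 lower in shBry (against 28.9% of all tested genes) and 5 higher (against 30.6%). Kinesin-2 is a cilium and membrane motor made of KIF3A, paired with KIF3B or KIF3C, and the adaptor protein KIFAP3. Its motor genes did not move in 1 direction. KIF3C had 87.4, 83.5 and 78.4 CPM in shNC and 49.1, 53.0 and 51.3 CPM in shBry, without overlap. It fell by 0.70 on the log2 scale (standard error 0.09, adjusted p = 1e-05, edgeR). KIF3A had 9.62, 9.83 and 13.3 CPM in shNC and 15.99, 23.7 and 13.5 CPM in shBry, and the highest shNC and the lowest shBry value nearly touched. It rose by 0.70 on the log2 scale (standard error 0.20, adjusted p = 0.0078, edgeR), but by 0.42, within the fold change limit, without shBry replicate 2. KIF3B had 97.2, 95.1 and 100.3 CPM in shNC and 80.1, 79.2 and 81.4 CPM in shBry, which was -0.28 on the log2 scale (edgeR, adjusted p = 0.0072) within the limit. KIF17, a motor of the same family that forms homodimers, had 0.798 to 1.28 CPM and was not called.

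The main kinesin-1 genes were not called. KIF5B, the heavy chain found in most cells, had 79.2, 84.1 and 109 CPM in shNC and 72.3, 103 and 80.1 CPM in shBry, and the groups overlapped. Its log2 fold change was -0.09 (standard error 0.14, adjusted p = 0.59, edgeR). The light chain genes KLC1 and KLC2 had log2 fold changes of 0.14 and -0.07 (adjusted p = 0.14 and 0.5, edgeR), and in GENCODE 29 40.6% of KLC1's exon bases lie under exons of other genes, mainly XRCC3. KLC4 was at -0.48 on the log2 scale (edgeR, adjusted p = 0.0025), within the fold change limit. KLC3, a light chain gene at a low level, had 2.61, 1.84 and 1.40 CPM in shNC and 4.58, 4.004 and 2.88 CPM in shBry. It was called higher, with a log2 fold change of 0.96 ± 0.27 (edgeR estimate and standard error, adjusted p = 0.0077), and other genes, mainly ERCC2, overlap 14.6% of its exon bases. With shBry replicate 2 and shNC replicate 3 both left out, it was at 0.69 on the log2 scale and was not called (adjusted p = 0.055, edgeR). The neuronal heavy chain gene KIF5A had at most 6 counts, and KIF5C had 0.431 to 0.843 CPM and was not called.

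Of the kinesin-3 and kinesin-14 transport genes, none was called. KIF1B, a carrier of mitochondria and vesicle precursors, had 64.9, 57.9 and 61.7 CPM in shNC and 53.9, 70.6 and 61.4 CPM in shBry, with a log2 fold change of 0.01 ± 0.10 (edgeR estimate and standard error, adjusted p = 0.93). KIF1C, KIF13B and KIF16B had log2 fold changes of -0.10, 0.14 and 0.22, with adjusted p between 0.27 and 0.33 in the same edgeR test. KIF13A, KIFC2 and KIFC3 had -0.38, -0.35 and -0.29 with adjusted p between 0.009 and 0.016 in the same edgeR test, each without overlap between the groups but within the fold change limit. KIF1A, a neuronal motor, had at most 2 counts.

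Of the 16 genes in neither list, 7 were tested, 1 was called higher (14.3%, against 17.1% of all tested genes) and none lower (against 15.2%). KIF21B, a kinesin-4 motor that limits microtubule growth, had 18.3, 16.5 and 16.5 CPM in shNC and 30.7, 32.9 and 30.01 CPM in shBry, with no overlap. It rose by 0.87 on the log2 scale (standard error 0.11, adjusted p = 1.5e-05, edgeR). KIF24, a centriolar protein that limits the formation of cilia, had a log2 fold change of -0.56 ± 0.14 (edgeR estimate and standard error, adjusted p = 0.0043), just within the fold change limit of 1.5. It was called lower without shBry replicate 1, shBry replicate 2 or shNC replicate 2, with log2 fold changes between -0.66 and -0.62. KIF2A, KIF7, KIF9, KIF21A and KIF27 had log2 fold changes between -0.20 and 0.31 and were not called. KIF27 shared 26.7% of its 50-base transcript stretches with other genes, mainly AL353743.1.
KIFC1, a minus-end motor that gathers spindle poles, had 11, 6 and 11 counts in shNC and 0, 3 and 1 counts in shBry, too few for the test. It lies on chromosome 6 of GRCh38 from 33391536 to 33409924, at the edge of the MHC region. Of the 20 listed coding genes before it, 12 were listed at 0 in all libraries, against 1 of the 20 after it, so the level of KIFC1 cannot be read from these counts. KIF2B and KIF19 were listed at 0 in all libraries, and KIF4B, KIF6, KIF12, KIF25, KIF26A and KIF26B had at most 9 counts in any library.

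**Figure D2:**
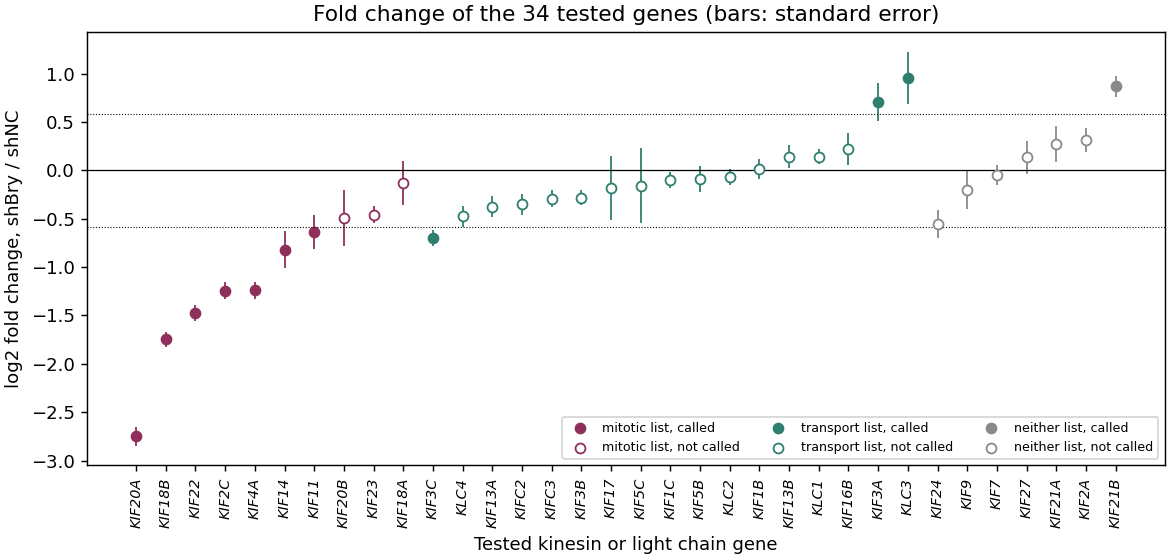
The log2 fold change of shBry over shNC from edgeR for the 34 tested kinesin and light chain genes, ordered within the mitotic list, the transport list and the genes in neither list. Bars are standard errors, filled points were called and dotted lines mark a fold change of 1.5. The mitotic list extends from -2.75 for KIF20A to -0.13 for KIF18A, and the transport list from -0.70 for KIF3C to 0.96 for KLC3.

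Within a family, the log2 ratio of a mitotic gene to a relative was lower in shBry in each of 5 pairs, of which 3 set it beside a gene outside the mitotic list. The log2 ratio of the counts of 2 genes was formed in each library and compared by a two-sided exact permutation test, which cannot give a p below 0.1 for 3 against 3 libraries. For the kinesin-13 pair KIF2C to KIF2A, the log2 ratio was 2.73 ± 0.17 in shNC and 1.17 ± 0.25 in shBry (SD, n = 3), a difference of -1.56 (exact permutation p = 0.1). KIF2A, also a microtubule depolymerase, itself had 25.7, 28.5 and 35.2 CPM in shNC and 34.3, 41.1 and 35.5 CPM in shBry (adjusted p = 0.051, edgeR). For the kinesin-4 pair KIF4A to KIF21A, the log2 ratio was 3.71 ± 0.32 in shNC and 2.20 ± 0.38 in shBry (SD, n = 3), a difference of -1.51 (exact permutation p = 0.1). KIF21A had 7.47, 10.8 and 11.2 CPM in shNC and 10.6, 14.6 and 10.3 CPM in shBry. For KIF14 to KIF1B, both of the kinesin-3 family, the difference was -0.83, for KIF20A to KIF20B -2.19 and for KIF18B to KIF18A -1.63 (exact permutation p = 0.1 for each). In all 5 pairs the 3 shBry ratios lay below the 3 shNC ratios, and p was 0.1 after adjustment over the 5 pairs. The first gene of each pair was itself called lower and its relative was not called. The direction of the ratios therefore restates the values of the single genes and is no separate support. How often ratios of other genes part in this way was not tested. KIF2C, KIF4A, KIF20A and KIF18B had more GC in their transcripts than their relatives, and KIF14 (38.3%) had less than KIF1B (47.1%). The part of GC content in the ratios was not tested. The pair KIFC1 to KIFC3 was left out because KIFC1 had a library at 0.

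The makeup of the kinesin counts differed between the groups. Kinesin and light chain genes took 0.241%, 0.238% and 0.246% of all counts in shNC replicates 1, 2 and 3 and 0.163%, 0.173% and 0.163% in shBry. The mitotic list made up 41.0%, 40.3% and 43.0% of these kinesin counts in shNC and 23.98%, 23.6% and 23.4% in shBry. Summed over its genes, the mitotic list had 985, 962 and 1042 CPM in shNC and 408, 396 and 388 CPM in shBry. The transport list had 1260, 1276 and 1224 CPM in shNC and 1123, 1112 and 1108 CPM in shBry. Neither sum overlapped between the groups, and the gap was wider for the mitotic list.
Levels were compared between genes per kilobase of exon. In shNC, KIF2C had the highest level of all 46 genes with 54.0 ± 2.47 CPM per kilobase (SD, n = 3), followed by KIF22 with 48.1 ± 1.55, KIF18B with 36.7 ± 0.959 and the transport gene KIFC3 with 34.5 ± 2.99. KIF20A was the fifth with 32.8 ± 2.15 CPM per kilobase. KIFC3 did not differ from KIF18B or from KIF20A, its neighbours in this order, beyond their spread. In shBry, KIFC3 was the highest with 28.2 ± 1.23 CPM per kilobase, followed by KIF1C with 24.9 ± 1.79 and KIF2C with 22.8 ± 1.71, and the last 2 did not differ beyond their spread. KIF20A had 4.87 ± 0.297 CPM per kilobase and the 17th place. With the longest transcript as the length, KIFC3 and not KIF2C was the highest in shNC (96.6 CPM per kilobase), followed by KIF22 (82.8) and KIF2C (66.6). In shBry, KIFC3 then had 78.9 CPM per kilobase, followed by KIF22 (29.9), KLC2 (29.5), KIF2C (28.1) and KIF1C (27.0). The order in both groups thus depended on the length used.

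**Figure D3:**
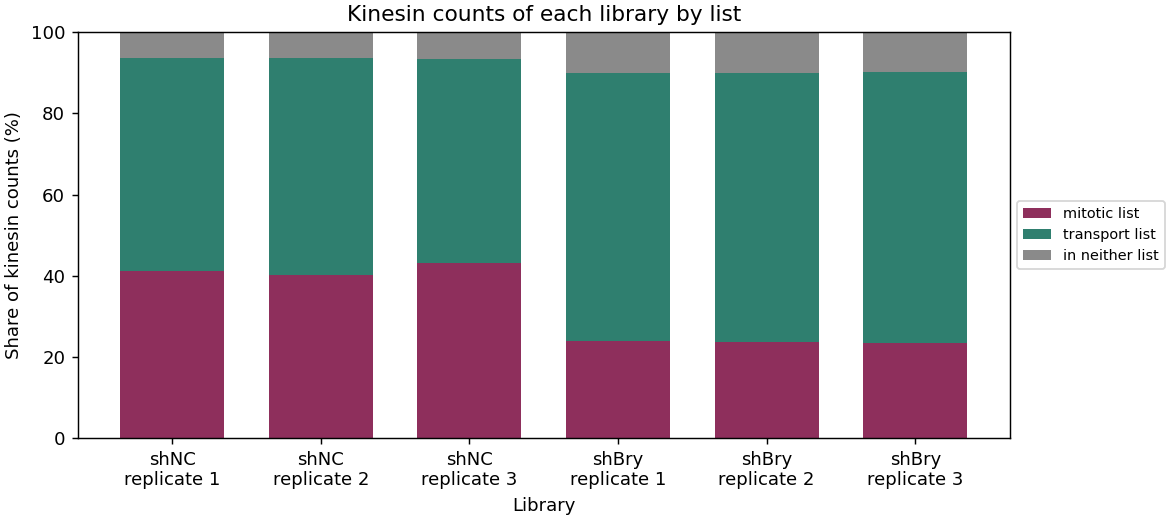
The share (%) of the kinesin and light chain counts of each library that fell on the mitotic list, the transport list and the genes in neither list, with 1 bar per library. The mitotic share is 40.3% to 43.0% in the 3 shNC libraries and 23.4% to 23.98% in the 3 shBry libraries.

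The mitotic genes with more GC in their transcripts had the larger changes. The 5 tested genes with the lowest GC content, KIF20B, KIF18A, KIF14, KIF11 and KIF23 (34.2% to 42.3%), had log2 fold changes between -0.82 and -0.13. The other 5, KIF4A, KIF20A, KIF2C, KIF18B and KIF22 (46.4% to 58.9%), had -2.75 to -1.24. The same split parted the genes by level. The shNC means were 9.09 to 85.2 CPM in the first 5 and 127 to 207 CPM in the other 5. Across these 10 genes Spearman's rho was -0.81, as a description of genes that share the same 6 libraries. All 13619 tested genes with a GC value showed a weaker trend in the same direction (rho -0.16), with a median log2 fold change of 0.21 at 35% to 40% GC and -0.10 at 55% to 60%. With the median of genes of like GC content subtracted, the median log2 fold change of the mitotic list was -1.12 and each of its 10 tested genes stayed below 0. Of the 3 shNC libraries, replicate 3 was the highest in 7 of the 10 genes. The parts of GC content and of level in the sizes of the changes were not tested.

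**Figure D4:**
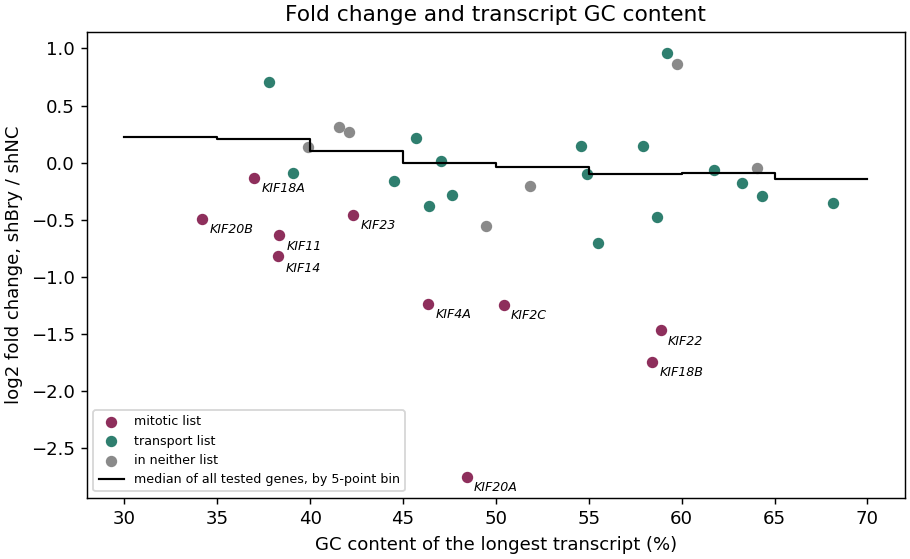
The log2 fold change of shBry over shNC against the GC content of the longest transcript (%) for the 34 tested genes, 1 point per gene. The black steps are the median log2 fold change of all tested genes in bins of 5 percentage points, from 0.22 at the lowest to -0.15 at the highest GC content. All 10 mitotic genes lie below the steps.

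Most genes that work beside the mitotic kinesins were lower too. Of 20 such genes, all tested, 16 (80%) were called lower, against 15.2% of all tested genes. None was called higher, against 17.1%, and the median log2 fold change was -1.12. This list was chosen with earlier results of these data known, so its share is no separate support. PLK1, a mitotic kinase that binds KIF20A at the central spindle, had 229, 214 and 210.05 CPM in shNC and 72.8, 62.4 and 66.1 CPM in shBry, which was -1.70 on the log2 scale (edgeR, adjusted p = 1.6e-09). NUSAP1, a microtubule-binding spindle protein, and BIRC5, the survivin subunit of the chromosomal passenger complex, had -1.76 and -1.64 (adjusted p = 2.6e-09 and 2.9e-09, edgeR). CENPE, a kinesin-7 motor of the kinetochore whose symbol is not of the KIF kind, had 7.42, 9.97 and 18.5 CPM in shNC and 6.03, 10.9 and 5.28 CPM in shBry. These values overlapped, and it was not called (log2 fold change -0.68, adjusted p = 0.074, edgeR). ECT2, HMMR and KNSTRN were the other genes not called.
Of 18 genes for cargo adaptors and regulators of transport kinesins, 15 were tested. Of these, 3 (20%) were called higher, against 17.1% of all tested genes, and none lower, against 15.2%. SPAG9, a scaffold that binds kinesin-1 and dynein, rose from 68.0, 67.6 and 81.9 CPM in shNC to 112, 135 and 109.7 CPM in shBry, by 0.71 on the log2 scale (adjusted p = 5.6e-05, edgeR). KIFAP3, the kinesin-2 adaptor, rose by 0.64 (adjusted p = 0.0053, edgeR), from 10.95, 11.8 and 15.7 CPM in shNC to 15.7, 20.7 and 23.4 CPM in shBry. Its log2 fold change was 0.51 without shBry replicate 3, 0.54 without shNC replicate 1 and 0.57 without shNC replicate 2, each within the fold change limit. KIFAP3 was named because it joins KIF3A and KIF3B in 1 complex, after its value was seen. KIF1BP, a kinesin-binding protein that inhibits several motors, was at -0.49 on the log2 scale (edgeR, adjusted p = 0.002), within the fold change limit. Without shBry replicate 3 it was at -0.60 and was called lower (adjusted p = 0.0014, edgeR).
Dynein, the motor that runs the other way along microtubules, and its cofactor dynactin had 26 listed genes, of which 25 were tested, 2 were called higher (8%, against 17.1% of all tested genes) and 2 lower (8%, against 15.2%). The light intermediate chain gene DYNC1LI1 rose from 37.3, 46.0 and 48.2 CPM in shNC to 106, 108 and 116 CPM in shBry, which was 1.33 on the log2 scale (edgeR, adjusted p = 1e-07). ACTR1A, the actin-related protein that forms the dynactin filament, fell from 269.96, 266 and 245 CPM to 123, 109.9 and 130.03 CPM, which was -1.10 on the log2 scale (edgeR, adjusted p = 1.2e-07). NDEL1, a dynein regulator, rose by 0.67 (adjusted p = 1.3e-05, edgeR). The other gene called lower was DYNC1I1, a dynein intermediate chain gene at a low level (log2 fold change -0.92), named after its value was seen, and the median of the list was -0.01.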

How the data were processed

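RNA of MDA-MB-231 shBry and shNC cells (3 libraries each) was sequenced by the authors, who deposited raw read counts per gene symbol, without normalization. The submitters' processing notes name HISAT2 2.0.4, HTSeq and GRCh38. The annotation, strand setting and handling of reads with several matches are not given in the sources used here, so overlapping genes may share counts. The counts per library were 19319411 to 22985371, which limits precision for genes with few counts. Samples were grouped by their hairpin label.

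Genes were kept by filterByExpr (minimum count 10), scaled by TMM and tested over the whole table with edgeR 4.0.16 (quasi-likelihood, Benjamini-Hochberg adjustment) under R 4.3.3. CPM are TMM-normalized, and standard errors are the log2 fold change divided by the square root of F. The threshold on the fold change follows the study's methods. Locations, lengths and overlaps came from GENCODE 29 by symbol, GC content from each gene's longest transcript, and promoter windows from RefSeq. The share of 50-base stretches found in other genes' transcripts measured shared sequence. For log2 ratios, 0.5 counts were added.

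The genes and lists were chosen with earlier results of these data known. Values per library were given for the mitotic list, called members outside it and the family pairs, and in each other list those 3 genes were named whose adjusted p was lowest. In the cargo and adaptor list, 1 of these is not reported here. Alternatives were library totals without TMM, DESeq2 1.42.0, limma-voom (limma 3.58.1), other filters and thresholds, a replicate block and leaving out libraries. The edgeR test was tried on simulated data first.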

Additional observations from a re-analysis of the deposited data

How the results depend on the processing

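The 7 mitotic kinesin genes called lower were also 7 in number with library totals without TMM, DESeq2, limma-voom, unadjusted p, at least 10 counts in every library and the replicate block. They were 5 with a fold change limit of 2, 8 without a limit and 8 without the filter on low counts. With shBry replicate 2 and shNC replicate 3 both left out, a setting chosen after seeing the data because these libraries deviated together along GC content, 7 were called, with KIF20B (log2 fold change -0.71) in place of KIF11 (-0.56). With each library left out in turn, 6 to 9 mitotic, 2 to 3 transport and 1 to 3 other kinesin genes were called, as were 16 to 17 mitotic partner, 2 to 3 cargo and adaptor and 4 to 5 dynein and dynactin genes. Leaving out 1 library lets genes with few counts, such as KIF15, into the test. With 1 library left out, 4587 to 5025 of all tested genes were called, with 15493 to 15691 tested. With both left out 4958 of 15333 were called, and without the filter on low counts 5334 of 25518. For a limit of 2 and for no limit, the share over all genes was not taken. The counts at these limits therefore cannot be set against it.

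For the transport list, 1 gene (KIF3C) was called with both libraries left out, 0 with a fold change limit of 2 and 8 with no limit. For the genes in neither list the number was 2 without the filter on low counts, 2 with both libraries left out, 0 with a limit of 2 and 2 with no limit. With a limit of 2, 1 cargo and adaptor gene and 2 dynein and dynactin genes were called, and with no limit 12 dynein and dynactin genes. The median log2 fold change of the mitotic list was -1.26 without the filter on low counts, and lay between -1.28 and -0.93 with 1 library left out. The number of genes tested differed between these settings. With 1 library left out, the median was -1.28 to -1.20 where 11 genes were tested, KIF15 among them. It was -1.10 and -0.93 where 10 were tested, and without the filter 11 were tested. The median of the transport list lay between -0.27 and -0.084 with 1 library left out, with the low end without shBry replicate 2.

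Genes near 0 changed sign under some settings, and the cause was not tested. KIF1B had -0.0020 with library totals, -0.0099 with DESeq2, -0.011 without the filter on low counts and -0.13 with both libraries left out, and KIF27 had -0.045 with both left out. With 1 library left out, the lowest and highest log2 fold changes were -0.11 and 0.10 for KIF1B, -0.052 and 0.22 for KIF27, -0.35 and 0.15 for KIF18A, -0.27 and 0.039 for KIF5B, -0.47 and 0.023 for KIF5C, and -0.13 and 0.037 for KIF7. KLC3 lost its call with both libraries left out (0.69, adjusted p = 0.055, edgeR). The 5 family ratios kept their sign under every setting tried.

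No pairing of the libraries by replicate number was seen. The correlations of the deviations of same-numbered libraries were 0.10, -0.05 and -0.06, and not every library correlated best with its own number. Such correlations cannot exclude a paired design, because the deviations also followed GC content. With the replicate block, 7 mitotic, 3 transport and 1 other kinesin genes were called, and the family ratios kept their differences, with an exact p of 0.25, the smallest that 3 pairs allow.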
